A study of Mus musculus with 30 samples.

Results

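RNA sequencing of wild-type (WT) mouse dendritic cells at 12 h of fungal challenge was set against the same kind of cells at 9 h, across all genes. The comparison used 6 of the 30 libraries of the series, 3 at 12 h and 3 at 9 h, chosen by genotype and time alone. Bone marrow was cultured with GM-CSF, the cytokine used to obtain dendritic cells and macrophages from myeloid precursors. Viable conidia (spores) of the mould Aspergillus fumigatus (AF29) were then added to every library of both groups. The other groups of the series were WT cells at 0, 3 and 6 h and cells of Nlrx1 deficient animals (KO) at the same 5 times, with 3 libraries in each. Nlrx1 belongs to the NOD-like receptors and sits at mitochondria. The 9 h group is a stage of the same challenge and no uninfected control. No cells kept without conidia for the same hours were among the samples, so time in culture and time with the fungus cannot be told apart. Whether each library of a group stands for its own animal or culture is not stated in the labels. The p-values therefore measure only the spread between libraries of a group, estimated over all 30 libraries of the series. That spread may be technical.

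Dendritic cells take up conidia and sense the wall sugars that are exposed when spores swell and germinate, mainly through the lectin receptor Dectin-1 (Clec7a) and Toll-like receptors. Dectin-1 signals through Syk and the Card9, Bcl10 and Malt1 complex to NF-kappaB and through MAP kinases to AP-1 and Egr factors. These factors switch on cytokine and chemokine genes together with their own inhibitors. Other regulators act beside them. NRF2 (Nfe2l2) drives genes that make glutathione, thioredoxin reductase and NADPH, SREBP2 (Srebf2) drives cholesterol synthesis and uptake, and HIF-1 (Hif1a) drives glucose uptake and other genes of low oxygen.

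The total count was 3509429, 3209967 and 2447460 in the WT 12 h libraries, against 3020533, 3041671 and 3163518 in the WT 9 h libraries. Genes with any count numbered 33759, 30636 and 28089 at 12 h, against 24404, 24941 and 26258 at 9 h, without overlap. The part of this difference in the rises of genes of few counts was not tested. Levels are given as CPM (a gene's counts scaled to a common library total) and changes as log2 of 12 h over 9 h ± the standard error of the fit. Adjusted p-values are those of the edgeR quasi-likelihood test over 12393 genes with a threshold of 0.05. Small RNA genes took 3.82% to 4.01% of all counts at 12 h, against 5.55% to 6.53% at 9 h in WT cells, without overlap. In KO cells that share was 3.21% to 3.54% at 12 h, against 3.07% to 3.62% at 9 h. The largest part came from Gm23935, a gene annotated as a microRNA, with 1.47% to 1.78% of counts at 12 h, against 2.62% to 3.16% at 9 h. When each library's small RNA share was added as a covariate, 39 genes passed in place of 1305. In WT cells the share and the time went together, so this fit can hardly tell their effects apart. Calls lost or kept with the covariate do not decide the part of this share, which was not otherwise tested in the results below. KO cells, whose share overlapped between the times, had 557 genes past the threshold over the same interval and 540 with the covariate.

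Summed markers of dendritic cells, among them Itgax (CD11c) and Cd74, came to 3160 to 3470 CPM at 12 h, against 3370 to 3620 CPM at 9 h, and none of the 16 markers was at 0 in all 6 libraries. Macrophage markers, led by Lyz2 and Apoe, came to 10700 to 11300 CPM at 12 h, against 11600 to 11700 CPM at 9 h. B cell markers summed to 4.50 to 10.8 CPM at 12 h, against 2.41 to 5.19 CPM at 9 h, with overlap. T and NK cell markers came to 2.87 to 9.69 CPM at 12 h, against 1.80 to 2.68 CPM at 9 h, without overlap. Neutrophil markers summed to 1250 to 1360 CPM at 12 h, against 1400 to 1540 CPM at 9 h. In bulk libraries fewer cells of a type and less RNA per cell cannot be told apart.

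Between 9 h and 12 h, 640 genes rose and 665 fell in WT cells, which was 10.5% of the genes tested (5.16% up and 5.37% down). The rises were the larger changes. A change of at least 2-fold was reached by 158 of the genes that rose and by 39 of those that fell, and the median log2 change was 0.58 among the rises and -0.45 among the falls. Cytokines, chemokines, immediate early factors and inhibitors of NF-kappaB were among the strong rises, while NRF2 targets, cholesterol synthesis genes, ferroportin and lysosomal genes were among the falls. The 3 libraries at 12 h lay wholly above those at 9 h for 629 of the 640 rises, and wholly below for 652 of the 665 falls. Over all genes tested, 15.6% lay wholly above and 15.4% wholly below. Without the filter on low counts 832 genes passed, 34.3% of them rises, against 49.0% in the fit with the filter. With 1 library left out 865 to 1046 passed, the fewest without WT 9 h replicate 3.

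**Figure D1:**
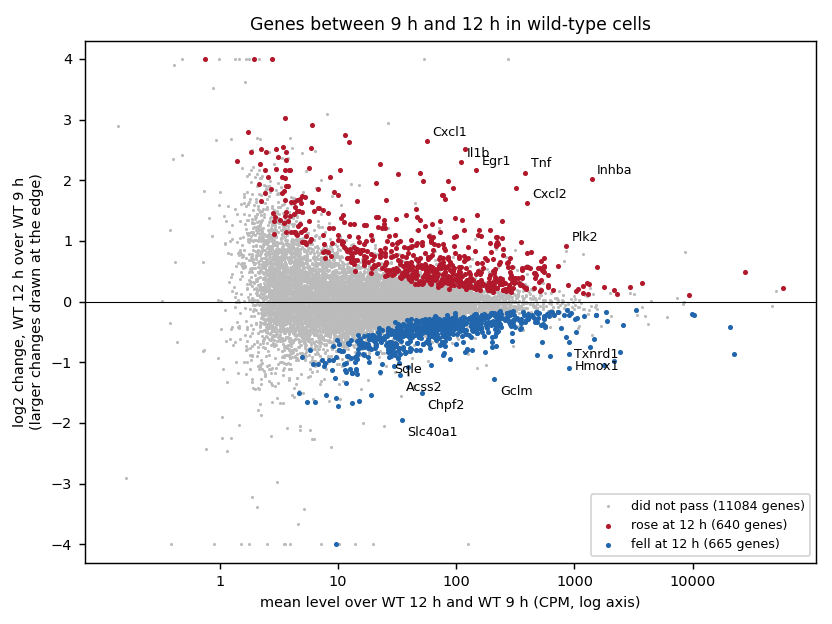
Each point is 1 gene tested, with its mean level over the 6 libraries on a log axis (CPM) and its log2 change of WT 12 h over WT 9 h on the vertical axis, red where it rose, blue where it fell and grey where it did not pass. Changes beyond the axis are drawn at its edge and genes without a count in the 6 libraries are left out. The labelled rises Cxcl1, Il1b, Tnf, Egr1 and Inhba had log2 changes of 2.02 to 2.65, and the labelled rises Cxcl2 and Plk2 had smaller ones. Among the labelled falls, Txnrd1 fell by 0.66 and Slc40a1 by 1.95.

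Inflammatory cytokines rose together: 10 of the 19 tested members of that list passed upwards and none fell, with a median log2 change of 1.32, against -0.0053 over all genes tested. Il1b, which encodes interleukin-1 beta, had 186, 175 and 192 CPM at 12 h, against 40.2, 34.7 and 36.98 CPM at 9 h (log2 change 2.30 ± 0.09, adjusted p = 2.13e-15). Tnf, the gene of tumour necrosis factor, had 719.6, 571 and 579 CPM at 12 h, against 153, 135 and 140.4 CPM at 9 h (log2 change 2.13 ± 0.10, adjusted p = 1.88e-14). In both genes the 3 libraries at 12 h were all more than 3 times as high as any library at 9 h. Inhba, which encodes the activin A subunit, had 2360, 2124 and 2221 CPM at 12 h, against 614, 526 and 514 CPM at 9 h (log2 change 2.02 ± 0.09, adjusted p = 5.49e-15). Il1a, the interleukin-1 alpha gene, had 560.5, 439.5 and 502 CPM at 12 h, against 145, 137 and 126 CPM at 9 h (log2 change 1.88 ± 0.11, adjusted p = 6.61e-12). Replicates differed little beside these gaps, and the 12 h libraries lay above all 9 h libraries in each of these genes. The T cell costimulator Tnfsf9 (4-1BB ligand) rose from a low level, with 8.03, 10.5 and 9.83 CPM at 12 h, against 1.68, 1.95 and 2.41 CPM at 9 h (log2 change 2.20 ± 0.55, adjusted p = 0.00923). Il12b, the p40 subunit shared by interleukin-12 and interleukin-23, had 12.2, 7.74 and 10.2 CPM at 12 h, against 4.36, 2.27 and 3.61 CPM at 9 h (log2 change 1.55 ± 0.50, adjusted p = 0.0468). The call was lost for Il12b whichever 1 of the 6 libraries was left out (adjusted p up to 0.172). Il23a and Il6 stayed at a few CPM and did not pass, at 1.89 ± 0.72 (adjusted p = 0.105) and 1.03 ± 0.71 (adjusted p = 0.423). In all, 14 of the 19 lay wholly above 9 h, against 15.6% of all genes tested. With the small RNA share as a covariate 4 of the 10 rises remained, and with 1 library left out 8 to 10 passed.

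**Figure D2:**
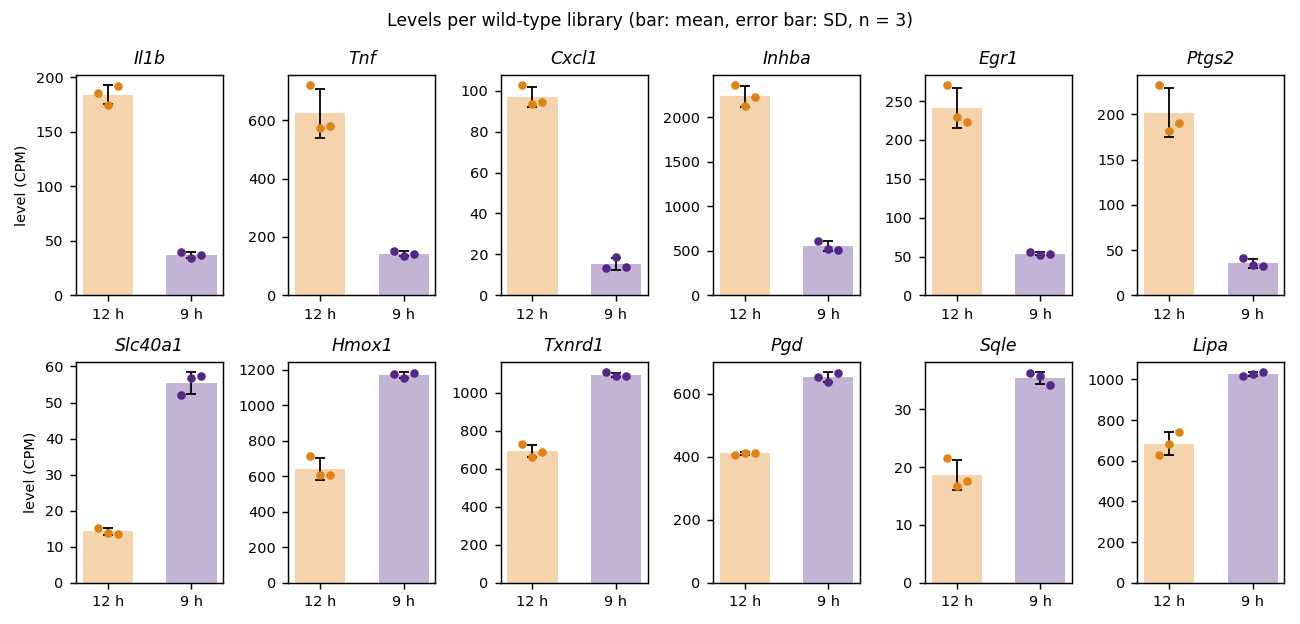
Levels in CPM of 12 genes in each library, with WT 12 h on the left and WT 9 h on the right of each panel; bars are means and error bars SD over 3 libraries. Il1b, Tnf, Cxcl1, Inhba, Egr1 and Ptgs2 in the upper row were higher at 12 h in every library, and Slc40a1, Hmox1, Txnrd1, Pgd, Sqle and Lipa in the lower row were lower in every library.

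Of 19 chemokine genes tested, 9 rose and 1 fell, with a median log2 change of 0.43, and 3 of the rises remained with the covariate. Cxcl1, a ligand of the neutrophil receptor Cxcr2, made the largest rise, with 103, 93.5 and 94.6 CPM at 12 h, against 13.4, 18.8 and 14.1 CPM at 9 h (log2 change 2.65 ± 0.19, adjusted p = 5.33e-11). Cxcl2, another Cxcr2 ligand, had 650.1, 569.5 and 572 CPM at 12 h, against 220.2, 168 and 194 CPM at 9 h (log2 change 1.62 ± 0.10, adjusted p = 1.87e-11). Cxcl3, the neighbouring gene of the same group, did not move with them and had 876, 713 and 752 CPM at 12 h, against 791, 766 and 811 CPM at 9 h (log2 change -0.02 ± 0.08, adjusted p = 0.931). The monocyte and T cell attractants Ccl4 and Ccl3 were already abundant at 9 h. Ccl4 had 311, 262 and 270.2 CPM at 12 h, against 165, 149.6 and 134 CPM at 9 h (log2 change 0.91 ± 0.09, adjusted p = 2.82e-08). Ccl3 had 655, 603 and 645 CPM at 12 h, against 424, 388 and 386 CPM at 9 h (log2 change 0.67 ± 0.06, adjusted p = 4.69e-09). Ccl22, a chemokine of mature dendritic cells, had 280.1, 273 and 304 CPM at 12 h, against 158, 131 and 153 CPM at 9 h (log2 change 0.95 ± 0.09, adjusted p = 2.03e-08). The single fall was Pf4, which marks megakaryocytes and is also made by macrophages, with 310.3, 304 and 267 CPM at 12 h, against 359.7, 362 and 344 CPM at 9 h (log2 change -0.27 ± 0.07, adjusted p = 0.0124). Ppbp, the other megakaryocyte gene tested, had 40.7, 41.5 and 38.9 CPM at 12 h, against 62.4, 75.9 and 57.7 CPM at 9 h (log2 change -0.69 ± 0.15, adjusted p = 0.00221). Summed erythroid and megakaryocyte markers came to 312 to 355 CPM at 12 h, against 406 to 440 CPM at 9 h. This sum was led by Pf4 and Ppbp themselves and is no separate measure of such cells. Of its 12 markers 4 were at 0 in all 6 libraries, and Pf4 and Ppbp were the only 2 tested. The part of such cells in the fall of Pf4 was not tested. Leave-one-out fits ended the call for Pf4 without WT 12 h replicate 3 or WT 9 h replicate 2 (adjusted p up to 0.0994).

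The promoters of Cxcl1 and Cxcl2 are shown because both genes rose strongly and both windows hold matches to the NF-kappaB letters, GGG followed after any 3 bases by TTCC, searched on both strands. The windows run from 250 bases before to 50 bases after the gene's start in RefSeq (GRCm38.p6), are written 5′ to 3′ along the gene and have the matches in capitals. Nfkbia, the gene of the NF-kappaB inhibitor described next, is shown with them. The windows lie at chr5:90890995-90891294 (plus strand), chr5:90903649-90903948 (plus strand) and chr12:55492598-55492897 (minus strand).
Cxcl1: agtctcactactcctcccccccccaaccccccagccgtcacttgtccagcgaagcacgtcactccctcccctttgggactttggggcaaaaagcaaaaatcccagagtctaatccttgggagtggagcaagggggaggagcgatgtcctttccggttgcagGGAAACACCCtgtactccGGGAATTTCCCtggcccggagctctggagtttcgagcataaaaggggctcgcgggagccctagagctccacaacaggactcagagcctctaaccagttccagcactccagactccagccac
Cxcl2: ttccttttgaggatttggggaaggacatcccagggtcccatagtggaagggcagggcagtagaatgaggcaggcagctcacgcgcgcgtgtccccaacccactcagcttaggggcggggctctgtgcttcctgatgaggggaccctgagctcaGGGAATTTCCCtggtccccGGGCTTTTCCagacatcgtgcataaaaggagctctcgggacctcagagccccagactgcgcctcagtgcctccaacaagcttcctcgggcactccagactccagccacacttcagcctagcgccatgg
Nfkbia: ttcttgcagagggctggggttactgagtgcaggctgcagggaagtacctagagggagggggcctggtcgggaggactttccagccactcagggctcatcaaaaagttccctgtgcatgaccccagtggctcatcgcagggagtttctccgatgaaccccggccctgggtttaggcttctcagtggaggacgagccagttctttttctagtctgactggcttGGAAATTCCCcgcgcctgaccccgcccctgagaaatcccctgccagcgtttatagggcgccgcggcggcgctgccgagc
Cxcl1 and Cxcl2 hold 3 matches each, of which one pair is the same site read on both strands, and Nfkbia holds 1. The Cxcl3 window holds such matches too, although Cxcl3 did not rise, while the windows of Tnf and Il1b hold none. Across RefSeq windows, 5.52% of 27025 held a match, as did 10.4% of the 434 windows of genes that rose and 4.90% of the 490 windows of genes that fell, against 6.31% of the 8525 windows of tested genes. A match is a description of the letters and no evidence of binding.

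Of 29 tested NF-kappaB subunits and feedback genes 15 rose and none fell (median log2 change 0.36). Nfkbia, which encodes the inhibitor I-kappaB alpha, had 316, 293 and 279 CPM at 12 h, against 158, 153 and 147 CPM at 9 h (log2 change 0.96 ± 0.07, adjusted p = 4.63e-10). Rel, the c-Rel subunit, had 132, 120.4 and 135 CPM at 12 h, against 63.02, 58.7 and 62.2 CPM at 9 h (log2 change 1.07 ± 0.08, adjusted p = 2.83e-10). Tnfaip3, the ubiquitin-editing inhibitor A20, had 364, 297 and 319 CPM at 12 h, against 170.0, 162 and 143 CPM at 9 h (log2 change 1.05 ± 0.15, adjusted p = 4.29e-05). In each of these 3 genes the lowest library at 12 h was well above the highest at 9 h. Tnip3, a binding partner of A20, had 119, 149 and 133 CPM at 12 h, against 84.5, 74.3 and 78.5 CPM at 9 h (log2 change 0.76 ± 0.09, adjusted p = 5.23e-07). Nfkbiz, a nuclear I-kappaB family member that is needed for a subset of secondary response genes, made the largest rise of those named here, with 96.3, 68.7 and 88.03 CPM at 12 h, against 22.8, 13.6 and 26.8 CPM at 9 h (log2 change 2.00 ± 0.26, adjusted p = 6.56e-06). Gadd45b, a stress and survival gene driven by NF-kappaB, had 76.5 to 86.4 CPM at 12 h, against 42.2 to 50.3 CPM at 9 h (log2 change 0.85 ± 0.15). Of the 15 rises 1 remained with the covariate, and 13 to 15 passed with 1 library left out.

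Immediate early transcription factors had the highest share of rises among the lists of nuclear genes, with 19 of 31 tested members up and none down (median log2 change 0.64). Of these rises 3 remained with the covariate. Egr1, a zinc finger factor induced through MAP kinases, had 271, 230.0 and 223 CPM at 12 h, against 55.6, 52.6 and 53.5 CPM at 9 h (log2 change 2.16 ± 0.09, adjusted p = 5.49e-15). Junb and Fos, which encode AP-1 subunits, also rose. Junb had 247, 206 and 202 CPM at 12 h, against 104, 87.3 and 97.1 CPM at 9 h (log2 change 1.19 ± 0.10, adjusted p = 9.75e-10). Fos had 78.3, 81.1 and 81.5 CPM at 12 h, against 36.9, 36.01 and 41.2 CPM at 9 h (log2 change 1.08 ± 0.11, adjusted p = 9.6e-08). In all 3 genes the 12 h and 9 h libraries were far apart beside their spread. The nuclear receptor gene Nr4a1 had 39.03, 35.6 and 38.5 CPM at 12 h, against 9.05, 4.54 and 9.62 CPM at 9 h (log2 change 2.27 ± 0.39, adjusted p = 0.000204). Btg2, an antiproliferative gene, had 61.7, 69.02 and 67.6 CPM at 12 h, against 27.8, 30.2 and 28.9 CPM at 9 h (log2 change 1.19 ± 0.10, adjusted p = 2.93e-09). Egr3 rose with more scatter, at 47.3, 24.5 and 45.4 CPM at 12 h, against 15.4, 7.14 and 14.1 CPM at 9 h (log2 change 1.67 ± 0.28, adjusted p = 0.000146). Klf6, a Kruppel-like factor, had 479 to 495 CPM at 12 h, against 315 to 339.6 CPM at 9 h (log2 change 0.57 ± 0.04). Atf3, a stress-induced repressor, was high at both times and did not pass, with 490.2, 453 and 480.3 CPM at 12 h, against 465, 448 and 459 CPM at 9 h (log2 change 0.05 ± 0.07, adjusted p = 0.697). Egr2 had 298, 311 and 206 CPM at 12 h, against 139, 164 and 245 CPM at 9 h (log2 change 0.58 ± 0.32, adjusted p = 0.296), with overlapping groups.

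Brakes on MAP kinase and cytokine signaling rose with them, with 10 of 20 tested genes of phosphatases, mRNA decay and related feedback up and none down (median log2 change 0.74). A single one of these 10 rises remained with the covariate. Dusp1, a phosphatase that switches off p38 and JNK, had 169, 143 and 166 CPM at 12 h, against 59.3, 61.6 and 67.6 CPM at 9 h (log2 change 1.34 ± 0.11, adjusted p = 8.29e-10). Dusp4, a nuclear phosphatase of MAP kinases, had 40.1, 36.2 and 48.7 CPM at 12 h, against 18.4, 18.5 and 21.3 CPM at 9 h (log2 change 1.09 ± 0.14, adjusted p = 4.4e-06). Zc3h12c, a member of the Regnase family of RNA-binding proteins, had 108 to 118 CPM at 12 h, against 70.3 to 81.4 CPM at 9 h (log2 change 0.56 ± 0.08). Pde4b, which degrades cyclic AMP, had 33.2, 34.05 and 37.7 CPM at 12 h, against 12.4, 16.5 and 14.1 CPM at 9 h (log2 change 1.28 ± 0.22, adjusted p = 0.000185).

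The promoters of Dusp1 and Btg2 are printed because each holds 1 match to the cyclic AMP response element (CRE) letters TGACGTCA, which read the same on both strands and are in capitals. The Dusp1 window is chr17:26508423-26508722 and the Btg2 window chr1:134079106-134079405, both on the minus strand of GRCm38.p6.
Dusp1: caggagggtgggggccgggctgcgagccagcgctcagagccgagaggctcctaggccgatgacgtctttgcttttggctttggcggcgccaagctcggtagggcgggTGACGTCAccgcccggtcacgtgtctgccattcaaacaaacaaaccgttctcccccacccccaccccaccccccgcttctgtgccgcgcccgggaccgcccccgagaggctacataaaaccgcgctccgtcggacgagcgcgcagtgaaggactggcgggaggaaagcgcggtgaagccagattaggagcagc
Btg2: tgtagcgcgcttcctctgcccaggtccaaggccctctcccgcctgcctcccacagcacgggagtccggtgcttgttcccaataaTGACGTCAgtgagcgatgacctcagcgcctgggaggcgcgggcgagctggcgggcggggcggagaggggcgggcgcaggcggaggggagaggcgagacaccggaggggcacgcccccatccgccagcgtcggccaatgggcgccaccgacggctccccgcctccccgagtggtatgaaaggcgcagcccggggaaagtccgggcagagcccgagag
The full element was in 1.88% of all windows, in 3.47% of those of tested genes, in 4.15% of those of genes that rose and in 2.24% of those of genes that fell. Plk2, described further on, holds it as well.

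Genes of fungal recognition and Card9 signaling changed in both directions, 6 up and 5 down of 26 tested. Adding the covariate left 1 rise and none of the falls (5 and 2 at an unadjusted p under 0.05). Ptx3, a secreted pattern receptor that binds conidia, had 356, 344 and 337 CPM at 12 h, against 159.9, 135 and 118 CPM at 9 h (log2 change 1.33 ± 0.09, adjusted p = 1.87e-11). Malt1, the protease of the Card9 complex, had 613, 561 and 468 CPM at 12 h, against 315, 302 and 313 CPM at 9 h (log2 change 0.82 ± 0.08, adjusted p = 4.36e-08). The surface receptor genes Cd14 and Tlr2 rose, with 141 to 178 CPM at 12 h, against 78.8 to 92.3 CPM at 9 h for Cd14 (log2 change 0.89 ± 0.10) and 114 to 135 CPM at 12 h, against 66.4 to 75.1 CPM at 9 h for Tlr2 (log2 change 0.80 ± 0.10). Mrc1, the mannose receptor, had 118 to 134 CPM at 12 h, against 83.1 to 97.98 CPM at 9 h (log2 change 0.49 ± 0.11). Clec7a itself did not pass, with 989, 1074 and 1084 CPM at 12 h, against 1143, 1107 and 1111 CPM at 9 h (log2 change -0.09 ± 0.05, adjusted p = 0.222). Among the falls, Cd36, a scavenger receptor, fell by 0.22 ± 0.04, Itgb2, the beta chain of complement receptor 3, by 0.17 ± 0.03, and Prkcd, a kinase that phosphorylates Card9, by 0.20 ± 0.04 on the log2 scale. Nlrp3, the sensor of an inflammasome that matures interleukin-1 beta, was the sole member of its list of 20 to pass. That is 5.0% of the list, against 5.16% of all genes tested that rose. Nlrp3 had 129.5, 132 and 145 CPM at 12 h, against 71.7, 36.7 and 82.4 CPM at 9 h (log2 change 1.09 ± 0.24, adjusted p = 0.0043). The second library at 9 h lay well below the other two at that time. Nlrx1, the gene deleted in the KO group, was low throughout, with 9.41, 5.26 and 8.19 CPM at 12 h, against 12.7, 8.76 and 13.8 CPM at 9 h (log2 change -0.63 ± 0.50, adjusted p = 0.507). KO libraries had 3.92, 4.46 and 1.47 CPM at 12 h, against 3.76, 2.89 and 0 CPM at 9 h.

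The prostaglandin pathway showed opposite moves of its rate-limiting enzymes. Ptgs2, the inducible cyclooxygenase, had 232, 181 and 191 CPM at 12 h, against 40.9, 33.1 and 32.2 CPM at 9 h (log2 change 2.51 ± 0.19, adjusted p = 6.95e-10). Ptgs1, the constitutive one, had 72.8, 78.3 and 81.9 CPM at 12 h, against 104, 106 and 100.1 CPM at 9 h (log2 change -0.41 ± 0.08, adjusted p = 0.000717). The 12 h and 9 h libraries did not overlap in either gene. Ptgir, the prostacyclin receptor, had 58.7, 66.9 and 61.01 CPM at 12 h, against 88.2, 106 and 99.5 CPM at 9 h (log2 change -0.66 ± 0.08, adjusted p = 1.2e-06). Alox5ap, which presents arachidonate to 5-lipoxygenase, had 58.4, 60.7 and 80.7 CPM at 12 h, against 86.2, 98.3 and 93.2 CPM at 9 h (log2 change -0.49 ± 0.12, adjusted p = 0.00692). Pla2g7, which inactivates platelet-activating factor, fell by 0.16 ± 0.04 on the log2 scale. The leukotriene receptor gene Cysltr1 rose by 0.79 ± 0.20. Of 17 tested members 2 rose and 6 fell, and none passed with the covariate (1 rise and 2 falls at an unadjusted p under 0.05). The falls that passed numbered 3 without WT 12 h replicate 2 or WT 9 h replicate 2. Leaving out libraries ended the call of Alox5ap without WT 12 h replicate 1 or 2 (adjusted p up to 0.0575), of Cysltr1 without WT 12 h replicate 2 (adjusted p 0.119) and of Pla2g7 without WT 9 h replicate 2 (adjusted p 0.0621).

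Interferon-stimulated genes rose in small number, 6 of 41 tested, none falling, with a median log2 change of 0.53. No rise passed with the covariate (0 at an unadjusted p under 0.05). Ifit2, an RNA-binding antiviral protein gene, had 30.2, 52.9 and 20.5 CPM at 12 h, against 11.7, 25.96 and 7.52 CPM at 9 h (log2 change 1.21 ± 0.36, adjusted p = 0.0294). Gbp7 and Gbp2, guanylate-binding GTPases, had 59.2 to 83.9 CPM at 12 h, against 46.3 to 50.3 CPM at 9 h for Gbp7 and 64.3 to 81.1 CPM at 12 h, against 52.6 to 57.8 CPM at 9 h for Gbp2, with log2 changes of 0.58 ± 0.15 and 0.44 ± 0.12. The DNA-sensing family genes Ifi204 and Ifi205 rose by 0.71 ± 0.19 and 1.09 ± 0.32. Ifit1 had 14.1, 25.1 and 11.1 CPM at 12 h, against 8.38, 13.6 and 4.51 CPM at 9 h (log2 change 0.94 ± 0.40, adjusted p = 0.154), and as in Ifit2 the second library of each group was the highest. The interferon-stimulated response element letters, GAAA and again GAAA after any 2 bases, were in 3.49% of all windows, 3.31% of those of tested genes, 5.99% of those of genes that rose and 2.04% of those of genes that fell. The count of this list was the least steady of those led with here: none passed in edgeR without WT 12 h replicate 2 or WT 9 h replicate 3 (7 and 10 at an unadjusted p under 0.05), a single one passed when WT 9 h replicate 1 was left out, and 8 passed in another leave-one-out fit. Each of the 5 rises named here was lost in some such fit, with an adjusted p of 0.24 for Ifit2 and 0.102 for Gbp7 without WT 12 h replicate 2.

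Dendritic cell maturation genes rose in 7 of 25 tested members and fell in none, and 1 of the rises remained with the covariate. Cd83, a surface marker of mature dendritic cells, had 47.1, 38.4 and 49.1 CPM at 12 h, against 20.1, 17.2 and 14.7 CPM at 9 h (log2 change 1.37 ± 0.18, adjusted p = 3.74e-06). Cd274, which encodes the inhibitory ligand PD-L1, had 559, 578 and 541 CPM at 12 h, against 462, 441 and 437 CPM at 9 h (log2 change 0.33 ± 0.06, adjusted p = 0.000207). Marcksl1, a regulator of the actin cortex, had 86.1, 85.7 and 76.2 CPM at 12 h, against 38.2, 41.2 and 43.3 CPM at 9 h (log2 change 1.02 ± 0.09, adjusted p = 3.44e-09). Ccr7, the lymph node homing receptor, had 47.6, 47.7 and 47.9 CPM at 12 h, against 27.5, 37.6 and 32.5 CPM at 9 h (log2 change 0.55 ± 0.19, adjusted p = 0.0694). It did not pass, although all libraries at 12 h were above those at 9 h. Of 23 antigen presentation genes tested none rose and 1 fell (4.3%, against 5.37% over all genes tested). The fall was that of Calr, an endoplasmic reticulum chaperone gene, with 904 to 914 CPM at 12 h, against 1083 to 1148 CPM at 9 h (log2 change -0.29 ± 0.04). H2-Aa, an MHC class II chain gene, had 183, 198 and 186 CPM at 12 h, against 206, 220.3 and 212 CPM at 9 h (log2 change -0.17 ± 0.07, adjusted p = 0.0993). Of the lineage factors, Irf4, which supports one branch of conventional dendritic cells, had 109, 108 and 115 CPM at 12 h, against 83.8, 64.6 and 70.05 CPM at 9 h (log2 change 0.60 ± 0.09, adjusted p = 5.36e-05). Batf3, which supports the other, had 12.7, 11.1 and 12.3 CPM at 12 h, against 18.4, 17.5 and 20.7 CPM at 9 h (log2 change -0.65 ± 0.17, adjusted p = 0.0114). Itgax, the CD11c gene, had 1214, 1303 and 1279 CPM at 12 h, against 1181, 1164 and 1187 CPM at 9 h (log2 change 0.10 ± 0.03, adjusted p = 0.0537). Leave-one-out fits ended the call for Batf3 without WT 12 h replicate 2 or WT 9 h replicate 3 (adjusted p up to 0.0675).

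NRF2 targets showed the broadest fall: 19 of 24 tested members fell and 1 rose, with a median log2 change of -0.55. The only rise was Nfe2l2 itself, which encodes NRF2, with 344, 318 and 338 CPM at 12 h, against 227, 214 and 198 CPM at 9 h (log2 change 0.65 ± 0.06, adjusted p = 2.93e-09). Hmox1, which breaks down heme, had 711, 604 and 607 CPM at 12 h, against 1173, 1151 and 1182 CPM at 9 h (log2 change -0.87 ± 0.06, adjusted p = 4.46e-11). Txnrd1, the cytosolic thioredoxin reductase, had 729, 663 and 689.9 CPM at 12 h, against 1108, 1091 and 1088 CPM at 9 h (log2 change -0.66 ± 0.04, adjusted p = 1.94e-11). The 3 libraries of each time lay close together in both genes, with no overlap. The NADPH-producing enzymes of the pentose phosphate pathway fell too. Pgd had 407, 413 and 413 CPM at 12 h, against 654, 637 and 668 CPM at 9 h (log2 change -0.67 ± 0.04, adjusted p = 1.94e-11). G6pdx had 168, 176 and 169 CPM at 12 h, against 251, 246 and 259 CPM at 9 h (log2 change -0.56 ± 0.05, adjusted p = 7.69e-09). Gclm, the modifier subunit of the enzyme that limits glutathione synthesis, had 97.4, 136 and 137 CPM at 12 h, against 309, 261 and 322 CPM at 9 h (log2 change -1.27 ± 0.29, adjusted p = 0.00561). Osgin1, an oxidative stress response gene, had 9.69, 5.88 and 8.60 CPM at 12 h, against 16.1, 17.2 and 21.3 CPM at 9 h (log2 change -1.17 ± 0.26, adjusted p = 0.00377). Slc7a11, the cystine importer, made a small fall, with 833, 800.1 and 839 CPM at 12 h, against 914, 877 and 916 CPM at 9 h (log2 change -0.13 ± 0.03, adjusted p = 0.0127). Nqo1, Gclc, Prdx1, Gsr, Taldo1, Tkt, Blvrb, Abcc1 and Keap1 were among the other falls. With the covariate 4 of the 19 falls remained (Hmox1, Txnrd1, Pgd and G6pdx), and with 1 library left out 16 to 19 passed. With 1 library fewer the call was lost for Slc7a11 without WT 12 h replicate 2 or WT 9 h replicate 1 or 3 (adjusted p up to 0.0937).

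The promoters of Gclm and G6pdx are printed because each window holds 1 match to the core letters of the antioxidant response element bound by NRF2, TGACNNNGC. The matches are in capitals and read on the opposite strand. The windows are chr3:122245307-122245606 (plus strand) and chrX:74428831-74429130 (minus strand) on GRCm38.p6.
Gclm: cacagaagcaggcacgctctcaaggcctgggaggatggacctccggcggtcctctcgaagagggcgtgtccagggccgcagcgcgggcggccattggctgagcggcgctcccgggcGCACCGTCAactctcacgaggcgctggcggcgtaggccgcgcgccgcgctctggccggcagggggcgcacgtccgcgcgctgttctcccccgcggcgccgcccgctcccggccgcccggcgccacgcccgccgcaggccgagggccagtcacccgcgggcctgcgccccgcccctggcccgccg
G6pdx: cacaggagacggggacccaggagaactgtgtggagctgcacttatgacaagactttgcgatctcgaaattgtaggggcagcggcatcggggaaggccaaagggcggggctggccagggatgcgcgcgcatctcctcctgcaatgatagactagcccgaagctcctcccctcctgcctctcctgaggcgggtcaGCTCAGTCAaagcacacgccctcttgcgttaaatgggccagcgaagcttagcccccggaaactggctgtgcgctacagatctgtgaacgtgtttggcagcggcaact
These letters are frequent, in 12.5% of all windows, 1283 of the 8525 windows of tested genes, 17.7% of those of genes that rose and 16.1% of those of genes that fell, and the windows of Txnrd1 and Pgd hold none. They can overlap the AP-1 letters TGANTCA, as in the window of Mt2.

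Of 11 genes of the NADPH oxidase, superoxide dismutases and catalase 2 rose and 3 fell. Cat, the catalase gene, had 150.3, 156 and 163 CPM at 12 h, against 242, 256 and 248 CPM at 9 h (log2 change -0.67 ± 0.06, adjusted p = 1.35e-08). Cybb, the catalytic subunit of the phagocyte NADPH oxidase, had 1921, 1935 and 1915 CPM at 12 h, against 1690, 1646 and 1573 CPM at 9 h (log2 change 0.23 ± 0.04, adjusted p = 6.87e-05). Sod2, the mitochondrial superoxide dismutase, had 370.0, 398 and 356 CPM at 12 h, against 314, 281 and 264 CPM at 9 h (log2 change 0.39 ± 0.07, adjusted p = 0.000561). The oxidase partner Rac2 fell by 0.37 ± 0.07 on the log2 scale.

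Of 18 genes of iron and metal handling 3 rose and 4 fell. Slc40a1, which encodes ferroportin, the exporter of iron, made the largest fall among the lists, with 15.2, 13.9 and 13.5 CPM at 12 h, against 51.96, 56.8 and 57.4 CPM at 9 h (log2 change -1.95 ± 0.16, adjusted p = 8.43e-10). Every library at 12 h was under 30% of the level of any library at 9 h. The ferritin chains Fth1 and Ftl1 fell by 0.22 ± 0.03 and 0.32 ± 0.08 on the log2 scale from very high levels, Fth1 having 9883, 9239 and 9086 CPM at 12 h, against 11011, 10898 and 10844 CPM at 9 h. Both have many near-identical pseudogenes, so their counts are uncertain. Aco1, an iron-regulatory protein, fell by 0.35 ± 0.09. Tfrc, which imports iron by transferrin uptake, did not pass, with 41.2, 50.5 and 45.4 CPM at 12 h, against 35.9, 39.3 and 40.3 CPM at 9 h (log2 change 0.25 ± 0.12, adjusted p = 0.218). Mt2, a metallothionein, had 60.6, 50.8 and 53.6 CPM at 12 h, against 19.4, 18.2 and 23.4 CPM at 9 h (log2 change 1.43 ± 0.13, adjusted p = 7.6e-09). Mt1 had 222, 184 and 194 CPM at 12 h, against 145, 138 and 127 CPM at 9 h (log2 change 0.55 ± 0.07, adjusted p = 5.11e-06). Cp (ceruloplasmin) rose at a few counts per library, with 5.81, 2.79 and 2.87 CPM at 12 h, against 1.34, 0 and 0.601 CPM at 9 h (log2 change 2.52 ± 0.80, adjusted p = 0.0417). With 1 library fewer the call was lost for Cp without WT 12 h replicate 1, 2 or 3 or WT 9 h replicate 2 or 3 (adjusted p up to 0.194).

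Cholesterol synthesis and uptake genes fell in 11 of 23 tested members and rose in none, with a median log2 change of -0.66. Of the 23, 18 lay wholly below 9 h, against 15.4% of all genes tested. Hmgcs1, the synthase of an early step of the mevalonate pathway, had 42.6, 40.9 and 31.5 CPM at 12 h, against 61.3, 57.8 and 55.6 CPM at 9 h (log2 change -0.59 ± 0.14, adjusted p = 0.0072). Sqle, the first oxygenase of sterol synthesis, had 21.6, 16.7 and 17.6 CPM at 12 h, against 36.2, 35.7 and 34.3 CPM at 9 h (log2 change -0.92 ± 0.17, adjusted p = 0.000503). In both genes the highest library at 12 h was below the lowest at 9 h. Fdps, farnesyl diphosphate synthase, had 13.6, 6.19 and 9.42 CPM at 12 h, against 25.8, 28.6 and 31.3 CPM at 9 h (log2 change -1.54 ± 0.38, adjusted p = 0.00894). Leave-one-out fits ended the call for Fdps without WT 12 h replicate 2 (adjusted p 0.0665) and for Hmgcs1 without WT 12 h replicate 3 (adjusted p 0.0545). Msmo1, a sterol demethylase, had 26.3, 28.2 and 35.6 CPM at 12 h, against 46.3, 50.9 and 54.7 CPM at 9 h (log2 change -0.77 ± 0.15, adjusted p = 0.000649). Insig1, which holds SREBP proteins in the endoplasmic reticulum, did not pass, with 39.3, 29.4 and 33.2 CPM at 12 h, against 36.2, 32.1 and 28.6 CPM at 9 h (log2 change 0.08 ± 0.15, adjusted p = 0.82). With 1 library left out 8 to 12 members fell, and with the covariate none passed (3 at an unadjusted p under 0.05).

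The Hmgcs1 promoter is printed because it holds the letters of a sterol regulatory element, TCACNCCAC, in capitals (chr13:119690101-119690400, plus strand, GRCm38.p6).
Hmgcs1: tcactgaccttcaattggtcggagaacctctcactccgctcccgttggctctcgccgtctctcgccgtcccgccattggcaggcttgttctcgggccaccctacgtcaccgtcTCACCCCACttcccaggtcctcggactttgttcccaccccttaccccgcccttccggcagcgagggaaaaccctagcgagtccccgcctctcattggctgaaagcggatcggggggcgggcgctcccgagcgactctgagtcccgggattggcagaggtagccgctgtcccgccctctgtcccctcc
These letters were in 1.22% of all windows, 1.01% of those of tested genes, 1.38% of those of genes that rose and 1.63% of those of genes that fell, so they were rare in each.

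Genes of the other lipid lists moved as follows. Abca1, which exports cholesterol, rose, with 335, 322 and 313 CPM at 12 h, against 195, 161 and 175 CPM at 9 h (log2 change 0.87 ± 0.08, adjusted p = 5.38e-09). Apoe fell, with 876, 861 and 822 CPM at 12 h, against 1214, 1216 and 1181 CPM at 9 h (log2 change -0.50 ± 0.09, adjusted p = 0.000561). Mylip, a ubiquitin ligase, had 13.3, 11.5 and 12.7 CPM at 12 h, against 24.5, 21.1 and 25.3 CPM at 9 h (log2 change -0.92 ± 0.23, adjusted p = 0.00965). Of 22 genes of PPAR-gamma and fatty acid handling 2 rose and 7 fell, and none passed with the covariate (1 rise and 1 fall at an unadjusted p under 0.05). Scd2, a fatty acid desaturase, had 93.00, 102 and 102 CPM at 12 h, against 164, 184 and 170.2 CPM at 9 h (log2 change -0.80 ± 0.09, adjusted p = 2.32e-07). Fasn, the fatty acid synthase, had 44.01, 39.6 and 54.9 CPM at 12 h, against 73.4, 66.5 and 70.3 CPM at 9 h (log2 change -0.61 ± 0.16, adjusted p = 0.00992). Cpt1a, which admits fatty acids to mitochondria, fell by 0.40 ± 0.09 on the log2 scale. Acss2, which makes cytosolic acetyl-CoA, had 23.2, 17.02 and 20.5 CPM at 12 h, against 47.6, 45.4 and 47.5 CPM at 9 h (log2 change -1.20 ± 0.15, adjusted p = 1.41e-06). The rises were Fabp4, a fatty acid carrier, at 0.51 ± 0.14, and Hilpda, described next. The falls of this list numbered 4 without WT 12 h replicate 1 or WT 9 h replicate 2. The call was lost for Fabp4 without WT 12 h replicate 1 or WT 9 h replicate 3 (adjusted p up to 0.0915), for Fasn without WT 12 h replicate 2 (adjusted p 0.0781) and for Mylip without WT 12 h replicate 2 (adjusted p 0.0527).

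Genes of the hypoxia response rose in 10 of 18 tested members and fell in none (median log2 change 0.43). None of these rises passed with the covariate (4 at an unadjusted p under 0.05), and 5 passed with no filter on low counts. Hilpda, a lipid droplet protein gene induced by HIF-1, had 75.8, 68.4 and 67.6 CPM at 12 h, against 28.8, 28.2 and 26.8 CPM at 9 h (log2 change 1.34 ± 0.12, adjusted p = 7.96e-09). Hif1a had 446, 482 and 475 CPM at 12 h, against 305, 313 and 323 CPM at 9 h (log2 change 0.58 ± 0.08, adjusted p = 8.3e-06). Ero1l, an oxidase of the endoplasmic reticulum, had 89.7 to 103 CPM at 12 h, against 57.8 to 62.5 CPM at 9 h (log2 change 0.65 ± 0.09), and Slc2a1, the glucose carrier GLUT1, had 238 to 263 CPM at 12 h, against 193 to 211 CPM at 9 h (log2 change 0.33 ± 0.06). The short core letters of the hypoxia response element, ACGTG, were in 19.7% of all windows, 26.6% of those of tested genes, 27.9% of those of genes that rose and 29.2% of those of genes that fell. Glycolysis genes split, 4 up and 4 down of 23. Hk2, the inducible hexokinase, had 251, 247 and 236 CPM at 12 h, against 166, 167 and 184 CPM at 9 h (log2 change 0.50 ± 0.06, adjusted p = 1.29e-06). Hk3 had 199, 206 and 215 CPM at 12 h, against 246, 244 and 269.7 CPM at 9 h (log2 change -0.29 ± 0.06, adjusted p = 0.000561). Pfkl and Pdk1 rose by 0.40 ± 0.09 and 0.53 ± 0.13, and Eno1, Gpi1 and Aldoc fell by 0.26 ± 0.08, 0.21 ± 0.07 and 0.65 ± 0.20 on the log2 scale. Of 38 nuclear genes of the TCA cycle and respiratory chain none rose and 2 fell (5.3%, against 5.37% over all genes tested). Atp5a1 fell by 0.25 ± 0.05 and the citrate synthase gene Cs by 0.20 ± 0.06. The falls in glycolysis numbered 1 or 2 without any 1 of the 6 libraries. The smaller of these changes were unsteady, with the call lost for Gpi1 whichever 1 of the 6 libraries was left out (adjusted p up to 0.126). It was lost for Cs without WT 12 h replicate 1, 2 or 3 or WT 9 h replicate 1 or 3 (adjusted p up to 0.133) and for Eno1 without WT 12 h replicate 1 or 3 or WT 9 h replicate 1, 2 or 3 (adjusted p up to 0.202). It was also lost for Aldoc without WT 12 h replicate 2 or 3 or WT 9 h replicate 1 or 2 (adjusted p up to 0.255) and for Pdk1 without WT 9 h replicate 3 (adjusted p 0.088).

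**Figure D3:**
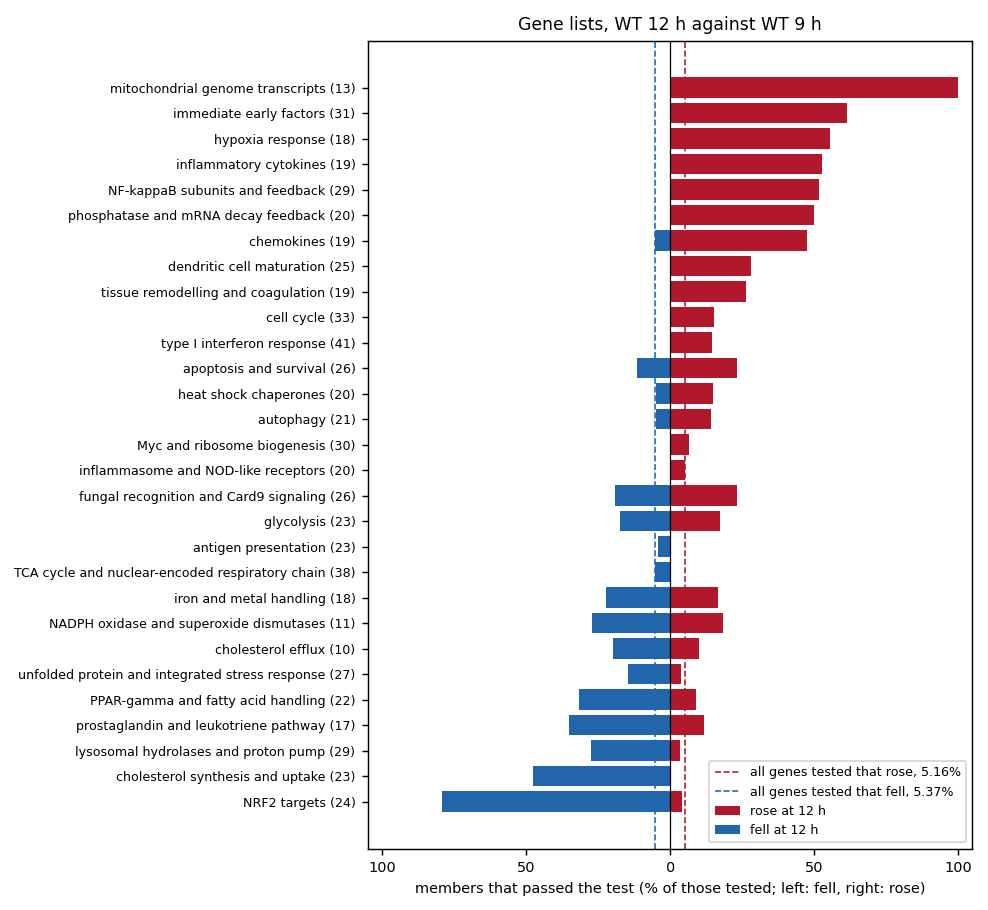
For each gene list, with the number of members tested in parentheses, the bar to the right gives the share of members that rose and the bar to the left the share that fell between WT 12 h and WT 9 h; dashed lines give the shares over all genes tested (5.16% rose, 5.37% fell). Transcripts of the mitochondrial genome rose in 13 of 13 and NRF2 targets fell in 19 of 24.

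All 13 protein-coding transcripts of the mitochondrial genome passed upwards in WT cells, with log2 changes of 0.18 to 0.98 and a median of 0.51. All 13 lay wholly above 9 h, against 15.6% of all genes tested. These transcripts encode subunits of respiratory complexes and ATP synthase. mt-Atp8 had 428, 479.8 and 489 CPM at 12 h, against 264, 228 and 216 CPM at 9 h (log2 change 0.98 ± 0.08, adjusted p = 8.43e-10). mt-Cytb had 1689, 1948 and 1936 CPM at 12 h, against 1335, 1195 and 1225 CPM at 9 h (log2 change 0.57 ± 0.07, adjusted p = 1.57e-06). mt-Nd4 had 781, 883 and 925 CPM at 12 h, against 621, 536 and 570.3 CPM at 9 h (log2 change 0.58 ± 0.08, adjusted p = 1.06e-05). mt-Co3 had 519, 523 and 564 CPM at 12 h, against 416, 371 and 371 CPM at 9 h (log2 change 0.47 ± 0.06, adjusted p = 1.43e-06). Together mitochondrially encoded genes took 10.3% to 11.2% of counts at 12 h, against 8.62% to 9.13% at 9 h. In KO cells none of the 13 passed over the same interval in edgeR (5 at an unadjusted p under 0.05). Their log2 changes were 0.04 to 0.18 with a median of 0.15, and the KO share was 12.2% to 13.1% at 12 h, against 11.4% to 12.3% at 9 h. The difference between the WT and the KO step was positive in 13 of 13 and passed for mt-Atp8 and mt-Co3. Small RNA genes and mitochondrial transcripts moved in opposite directions in the WT libraries. None of the 13 passed with the small RNA share as a covariate (1 at an unadjusted p under 0.05), and 10 to 13 passed with 1 library left out. mt-Atp8 overlaps mt-Atp6 and mt-Nd4 overlaps mt-Nd4l, so reads of each pair could be split between them.

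**Figure D4:**
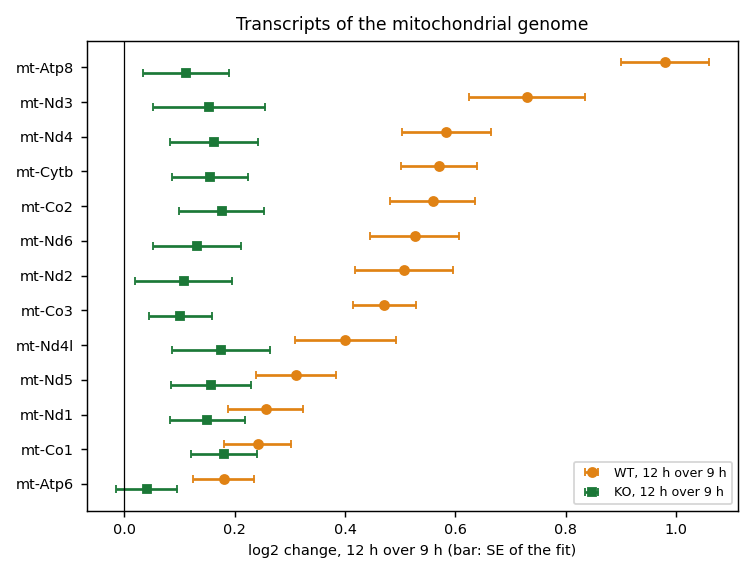
Log2 change of 12 h over 9 h for the 13 transcripts of the mitochondrial genome, circles for WT cells and squares for KO cells, with bars for the standard error of the fit. WT values run from 0.18 to 0.98 and KO values from 0.04 to 0.18.

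Of 20 tested heat shock chaperone genes 3 rose and 1 fell, with a median log2 change of 0.0049, and the inducible pair Hspa1a and Hspa1b moved most. Hspa1b had 126, 99.98 and 128 CPM at 12 h, against 32.5, 32.4 and 39.4 CPM at 9 h (log2 change 1.76 ± 0.11, adjusted p = 1.06e-11). Hspa1a had 131, 114 and 123 CPM at 12 h, against 35.2, 35.4 and 43.3 CPM at 9 h (log2 change 1.69 ± 0.11, adjusted p = 1.39e-11). The genes are nearly identical, so their counts may be shared. Hspd1, a mitochondrial chaperone, rose by 0.30 ± 0.07, and Hsp90ab1, the constitutive HSP90, fell by 0.22 ± 0.05 on the log2 scale. Of 27 genes of the unfolded protein and integrated stress response 1 rose, Ppp1r15b (0.24 ± 0.06), and 4 fell, among them Creld2, an endoplasmic reticulum protein, with 47.3, 47.7 and 44.2 CPM at 12 h, against 57.3, 66.8 and 68.8 CPM at 9 h (log2 change -0.47 ± 0.10, adjusted p = 0.00306). Gdf15, a secreted stress cytokine, did not pass (log2 change 0.42 ± 0.24, adjusted p = 0.307). Of the 4 falls, 1 or 2 passed without WT 12 h replicate 1 or 2 or WT 9 h replicate 2 or 3. With 1 library fewer the call was lost for Hsp90ab1 without WT 12 h replicate 3 (adjusted p 0.0532) and Ppp1r15b without WT 12 h replicate 1 or WT 9 h replicate 3 (adjusted p up to 0.0885).

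Lysosomal genes fell in 8 of 29 tested members and rose in 1, but 3 to 5 falls passed without any single library other than WT 9 h replicate 3. None of the 8 falls passed with the covariate (3 at an unadjusted p under 0.05). Lipa, the lysosomal acid lipase, had 629, 683 and 743 CPM at 12 h, against 1016, 1026 and 1035 CPM at 9 h (log2 change -0.58 ± 0.07, adjusted p = 4.41e-07). Psap, which encodes the saposin precursor, had 9180, 9333 and 8939 CPM at 12 h, against 10804, 10424 and 10419 CPM at 9 h (log2 change -0.21 ± 0.03, adjusted p = 0.000179). Ctsb, the cathepsin B gene, fell by 0.14 ± 0.03 and Atp6v1b2, a proton pump subunit, by 0.17 ± 0.05 on the log2 scale, while Lamp2 rose by 0.23 ± 0.06. Of 21 autophagy genes the adaptors Tax1bp1 and Optn and the conjugation factor Atg12 rose, by 0.32 ± 0.05, 0.57 ± 0.16 and 0.41 ± 0.12. Sqstm1, the p62 adaptor and an NRF2 target, fell, with 282, 413 and 402 CPM at 12 h, against 455, 431 and 447 CPM at 9 h (log2 change -0.28 ± 0.09, adjusted p = 0.0431). Its first library at 12 h stood apart below the others. The call was lost for Sqstm1 without WT 12 h replicate 1 or WT 9 h replicate 1, 2 or 3 (adjusted p up to 0.285). It was lost for Atg12 without WT 12 h replicate 3 or WT 9 h replicate 2 or 3 (adjusted p up to 0.139) and for Optn without WT 12 h replicate 1 or 2 or WT 9 h replicate 2 or 3 (adjusted p up to 0.095). Among lysosomal genes it was lost for Atp6v1b2 without WT 12 h replicate 1 or 2 or WT 9 h replicate 1 or 2 (adjusted p up to 0.0853) and for Ctsb without WT 12 h replicate 3 (adjusted p 0.0552).

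The apoptosis list changed in both directions (6 up, 3 down of 26), and the rises included Pmaip1, which encodes the death-promoting protein Noxa. Mcl1, an antiapoptotic BCL2 relative, had 647, 651 and 621 CPM at 12 h, against 468, 464 and 436 CPM at 9 h (log2 change 0.49 ± 0.06, adjusted p = 8.5e-07). Mdm2, the ligase that degrades p53, had 630.2, 429 and 450.4 CPM at 12 h, against 326, 277 and 268 CPM at 9 h (log2 change 0.79 ± 0.13, adjusted p = 0.000181). The near-identical Bcl2a1a and Bcl2a1d rose by 0.32 ± 0.06 and 0.30 ± 0.06. Bax, a pore-forming death effector, had 63.4, 61.3 and 64.7 CPM at 12 h, against 92.5, 77.9 and 79.1 CPM at 9 h (log2 change -0.40 ± 0.11, adjusted p = 0.0221). Bak1 fell by 0.42 ± 0.12 on the log2 scale. Of 33 cell cycle genes 5 rose and none fell. Plk2, a kinase of the polo family induced by stress, had 1137, 1076 and 1131 CPM at 12 h, against 619, 571 and 588 CPM at 9 h (log2 change 0.91 ± 0.04, adjusted p = 3.52e-14). Mki67, a proliferation marker, had 162, 149 and 137 CPM at 12 h, against 96.2, 89.9 and 88.99 CPM at 9 h (log2 change 0.70 ± 0.09, adjusted p = 6.41e-06). Ccnd1 and Ccnd2, D-type cyclin genes, rose by 0.63 ± 0.13 and 0.58 ± 0.09. Myc had 27.4, 21.7 and 27.02 CPM at 12 h, against 24.1, 24.98 and 22.5 CPM at 9 h (log2 change 0.09 ± 0.17, adjusted p = 0.827). Of 30 genes of Myc and ribosome biogenesis Nop58 and Npm1 alone passed, at 0.45 ± 0.12 and 0.16 ± 0.05. Their share of that list was 6.7%, against 5.16% of all genes tested that rose. Of the 3 falls in the apoptosis list, 1 passed without WT 12 h replicate 1 or 2 or WT 9 h replicate 1. The call was lost for Bax without WT 12 h replicate 1 or 2 or WT 9 h replicate 1 (adjusted p up to 0.126) and for Bak1 without WT 12 h replicate 2 or 3 or WT 9 h replicate 1 or 2 (adjusted p up to 0.154). It was lost for Nop58 without WT 12 h replicate 1 or WT 9 h replicate 3 (adjusted p up to 0.0992) and for Npm1 without WT 12 h replicate 2 or 3 or WT 9 h replicate 1, 2 or 3 (adjusted p up to 0.101).

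Coagulation and matrix genes rose in 5 of 19 tested members and fell in none, and 1 of the rises remained with the covariate. F3, tissue factor, which starts clotting, had 125, 114 and 118 CPM at 12 h, against 40.6, 31.8 and 32.8 CPM at 9 h (log2 change 1.76 ± 0.12, adjusted p = 1.87e-11). Serpinb2, an inhibitor of plasminogen activators, had 159, 142 and 142 CPM at 12 h, against 46.3, 36.3 and 38.2 CPM at 9 h (log2 change 1.88 ± 0.17, adjusted p = 1.15e-08). F10 rose by 0.28 ± 0.04 and Thbs1, thrombospondin 1, by 0.30 ± 0.05. The windows of F3 and Serpinb2 hold the AP-1 letters TGANTCA, which were in 7.93% of all windows, 4.88% of those of tested genes, 8.06% of those of genes that rose and 6.12% of those of genes that fell.

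Outside the pathway lists the largest changes by the naming rule included several secreted and adhesion genes. Edn1, endothelin 1, had 24.6, 19.5 and 20.1 CPM at 12 h, against 4.02, 3.89 and 2.41 CPM at 9 h (log2 change 2.63 ± 0.31, adjusted p = 1.06e-06). Epha4, an ephrin receptor, had 11.6, 9.29 and 11.1 CPM at 12 h, against 1.01, 0.973 and 2.10 CPM at 9 h (log2 change 2.91 ± 0.47, adjusted p = 0.000103). Gem, a small GTPase of the Rad family induced by stimulation, had 91.3, 75.8 and 74.5 CPM at 12 h, against 18.8, 19.1 and 17.4 CPM at 9 h (log2 change 2.13 ± 0.18, adjusted p = 1.92e-09). These 3 genes were several times as high in every library at 12 h. Vcam1, an adhesion molecule, had 8.30, 4.33 and 4.50 CPM at 12 h, against 1.01, 1.30 and 1.80 CPM at 9 h (log2 change 2.03 ± 0.45, adjusted p = 0.00331) at a handful of reads per library. It is also 1 of 10 stromal cell markers, whose summed level was 34.7 to 55.1 CPM at 12 h, against 21.8 to 33.7 CPM at 9 h. Of the 5 stromal markers tested Vcam1 was the single one that passed, Lum was at 0 in all 6 libraries, and the part of stromal cells in its rise was not tested. Chpf2, a chondroitin synthesis factor, had 33.5, 15.8 and 30.3 CPM at 12 h, against 68.4, 78.5 and 79.1 CPM at 9 h (log2 change -1.51 ± 0.26, adjusted p = 0.000292). Lrp8, a lipoprotein receptor relative, had 9.13, 7.74 and 4.91 CPM at 12 h, against 19.8, 22.7 and 26.8 CPM at 9 h (log2 change -1.63 ± 0.34, adjusted p = 0.00177). Both were lower in every library at 12 h. The low genes Kif11, Unc13b, Sytl2, Yy2, Adamts9, Cecr2, Gja1 and Mfsd4a had log2 rises of 2.17 to 3.02, and AU022252, Hsd3b7, Trim16, Susd3, Top3a, Numbl, Mcat and Prkd2 fell by 1.27 to 1.72, each at no more than 22.8 CPM in any library. Of these 16 low genes, Adamts9 and Numbl kept their call with each library left out in turn, and Trim16, Mcat and Prkd2 lost it whichever library was left out. Of the 176 named genes that passed, 117 kept their call with each of the 6 libraries left out in turn. With the small RNA share as a covariate 23 kept it, among them Il1b, Tnf, Il1a, Inhba, Cxcl1, Cxcl2, Egr1, Ptx3, Rel, F3, Mt2 and Slc40a1.

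By class of gene, 573 of 10504 protein-coding genes rose (5.46%) and 618 fell (5.88%). Of 437 long noncoding RNAs, 19 rose (4.35%, against 5.16% over all genes tested) and 3 fell (0.686%, against 5.37%). Of 235 small RNA genes, 7 rose (2.98%) and 20 fell (8.51%). Protein-coding genes that rose had a median span of 30739 bp and those that fell of 22512.5 bp, against 24889.5 bp over all tested. A cut of 30 CPM was applied at 12 h to rises, at 9 h to falls and at either time to all tested. With this cut the spans were 27979.5 bp and 24033 bp, against 29753.5 bp, so the order relative to all genes changed with level. Inhba, Il1a, Junb, Dusp1, G6pdx, Gclm and Acss2 overlap another tested gene on the opposite strand. The kit marked strand, but the sources used here do not give the strand setting of the counting, so reads of such pairs may be shared.

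KO cells passed through the same interval with 557 changes (4.49% of genes tested), of which 329 were rises (2.65%) and 228 falls (1.84%). No library is shared between the 2 steps. Of the 640 genes that rose in WT cells, 559 (87.3%) also had a positive change in KO cells and 217 passed there, which was 33.9% of the WT rises and 66.0% of the KO rises. Of the 665 that fell, 568 (85.4%) had a negative change in KO cells and 146 passed, which was 22.0% of the WT falls and 64.0% of the KO falls. None passed in the opposite direction. Over all genes tested the median log2 change in KO cells was 0.0048, so positive and negative changes were near balance there. In KO cells Il1b changed by 2.22 ± 0.09, Tnf by 1.74 ± 0.10, Cxcl1 by 1.99 ± 0.18, Slc40a1 by -1.63 ± 0.16 and Txnrd1 by -0.42 ± 0.04 on the log2 scale, each past the threshold. By list, 10 of 19 cytokines and 18 of 29 NF-kappaB genes rose in KO cells, and 11 of 24 NRF2 targets and 9 of 23 cholesterol genes fell.

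The difference between the WT and the KO step was tested directly and passed for 27 genes (0.218% of those tested), 9 (0.0726%) with a more positive and 18 (0.145%) with a more negative WT step. mt-Atp8 had the smallest adjusted p (difference 0.87 ± 0.11, adjusted p = 7.65e-05), with 608, 586 and 677 CPM at 12 h, against 515, 623 and 593 CPM at 9 h in KO cells. Inhba rose more in WT cells (difference 0.62 ± 0.12, adjusted p = 0.0201), where it started lower; KO cells had 2890, 2936 and 3189 CPM at 12 h, against 1095, 1341 and 974 CPM at 9 h. Hmox1 fell more in WT cells (difference -0.44 ± 0.08, adjusted p = 0.0201), and KO cells had 924, 938 and 898 CPM at 12 h, against 1253, 1233 and 1211 CPM at 9 h. Thbs1 rose less in WT cells (0.30 ± 0.05 against 0.68 ± 0.05 in KO cells), but leave-one-out fits of this difference are not given here. Map4k4, a kinase of the stress pathway, did not pass in WT cells (log2 change -0.15 ± 0.06, adjusted p = 0.098) and rose in KO cells (0.33 ± 0.06), a difference of -0.48 ± 0.08, adjusted p = 0.00563. The ribosomal protein gene Rps7 fell in WT cells (log2 change -0.49 ± 0.07, adjusted p = 1.31e-05) and did not pass in KO cells (log2 change 0.09 ± 0.07). The differences of Inhba and Hmox1 missed the threshold in 6 and 8 of the 12 leave-one-out fits (adjusted p up to 0.0744 and 0.0980). Those of mt-Atp8, Map4k4 and Rps7 passed in each of these fits. In the fit of the 12 libraries Inhba, Hmox1, Map4k4 and Rps7 missed the threshold (adjusted p of 0.202, 0.0672, 0.132 and 0.110). The same genes missed it with no filter on low counts (0.0713, 0.144, 0.116 and 0.0662). Between 12 and 36 genes passed with 1 library left out, with 12 to 15 without WT 12 h replicate 2 or 3, WT 9 h replicate 2, KO 12 h replicate 1 or 2 or KO 9 h replicate 2. DESeq2 found 68 such genes, 8 passed in a fit of the 12 libraries of these groups alone, and none passed with the small RNA share as a covariate (0 in edgeR, and 545 at an unadjusted p under 0.05).

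The step before, WT 9 h against WT 6 h, had fewer genes past the threshold, with 168 changes (1.36%), of which 65 were rises (0.524%) and 103 falls (0.831%). WT 6 h against WT 3 h had 234 changes (1.89%), with 99 rises (0.799%) and 135 falls (1.09%). The small RNA share was 6.29% to 6.74% at WT 6 h and 5.55% to 6.53% at WT 9 h, with overlap, against 3.82% to 4.01% at WT 12 h. Mitochondrially encoded genes took 8.50% to 9.48% at WT 6 h and 8.62% to 9.13% at WT 9 h, against 10.3% to 11.2% at WT 12 h. The part of these shifts in the sizes of the steps was not tested. A direct test of the 9 h to 12 h step against the 6 h to 9 h step passed for 441 genes (3.56%), 214 (1.73%) more positive and 227 (1.83%) more negative at the later step. Both steps use the WT 9 h libraries, so an error in those moves both, and 240 and 212 genes passed without WT 9 h replicate 2 and 3. Of 24 NRF2 targets, 1 rose and 19 fell from 9 h to 12 h, against 6 and 0 from 6 h to 9 h, and the difference passed downwards for 15. Hmox1 had means of 457 ± 26.9, 748 ± 14.7, 958 ± 52.6, 1169 ± 16.00, and 641 ± 60.9 CPM (SD, n = 3) at 0, 3, 6, 9 and 12 h. Slc40a1 had 11.9 ± 2.29, 22.8 ± 3.14, 51.9 ± 9.44, 55.4 ± 2.98, and 14.2 ± 0.892 CPM at the same times, and Sqle had 20.6 ± 4.13, 19.8 ± 1.78, 33.2 ± 3.46, 35.4 ± 1.00, and 18.6 ± 2.60 CPM. In all 3 genes the mean was highest at 9 h, with overlapping SDs of 6 h and 9 h in Slc40a1 and Sqle, and lower again at 12 h. Il1b had 25.9 ± 3.31, 27.2 ± 2.57, 19.8 ± 4.18, 37.3 ± 2.77, and 184 ± 8.87 CPM. Tnf had 74.5 ± 2.79, 75.2 ± 5.67, 83.7 ± 11.3, 143 ± 9.18, and 623 ± 83.5 CPM. Inhba had 289.8 ± 8.04, 444 ± 26.8, 474 ± 28.1, 551 ± 54.6, and 2235 ± 118 CPM. For Il1b and Tnf the first 9 h changed the mean by less than the 3 h that followed, and for Inhba as well. Plk2 had 439 ± 5.54, 599 ± 4.51, 662 ± 15.8, 593 ± 24.4, and 1114 ± 33.8 CPM.

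**Figure D5:**
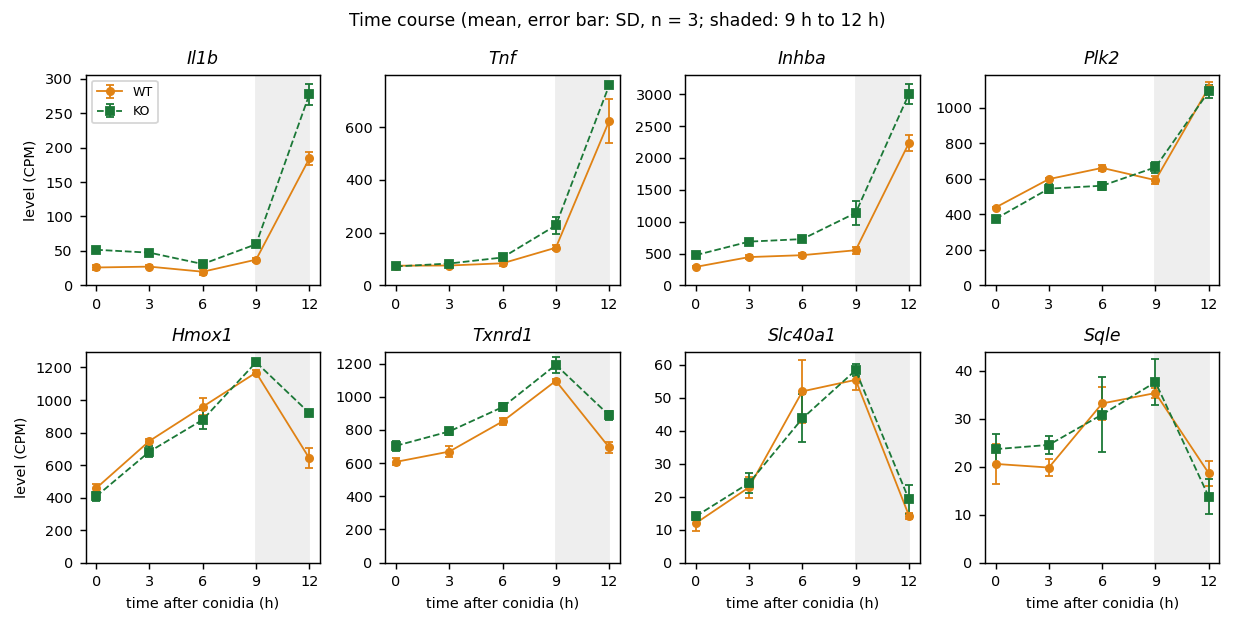
Mean level (CPM) with SD over 3 libraries at 0, 3, 6, 9 and 12 h after conidia were added, solid lines and circles for WT cells, dashed lines and squares for KO cells, with the interval from 9 h to 12 h shaded. Il1b, Tnf, Inhba and Plk2 in the upper row climbed most in the shaded interval, and Hmox1, Txnrd1, Slc40a1 and Sqle in the lower row had their highest mean at 9 h.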

How the data were processed

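The deposited table holds raw whole-number read counts per gene for 30 libraries, 3 in each of 10 groups. HISAT2, StringTie, DESeq2, Trimmomatic 0.35 and the GRCm38 build are named in the submitters' processing notes, and per the labels the kit kept strand. The sources used here do not say how counts were taken or with which strand setting and annotation release. The authors' comparison tables were not used. All columns matched a sample, so 0 were left out. Library totals in the 6 libraries ran from 2447460 to 3509429, which limits genes of few counts, and replicate pairs differed by more than sampling noise.

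From the counts, filterByExpr (minimum count 10) kept 12393 of 54532 genes, holding 98.66% of counts. edgeR 4.0.16 with limma 3.58.1 in R 4.3.3 fitted all 30 libraries with TMM scaling and a robust quasi-likelihood test, with 1 term per genotype and time, 20 residual degrees of freedom, a biological coefficient of variation of 13.7% and Benjamini-Hochberg adjustment over all genes tested. Steps were compared by contrasts of contrasts. GENCODE M21 gave the biotype and position of 54495 IDs and lacked 37, and RefSeq gave the promoter windows.

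Genes were named by rule: fixed genes, the 15 largest rises and falls of at least 5 CPM without overlap, up to 4 per list and direction, and 6 per direction of each difference test. Some genes chosen by the rule are not reported here. Members and lists were chosen with earlier results of these data known. The alternatives were DESeq2 1.42.0, its size factors, no filter, fewer libraries, protein-coding genes, a replicate block, the small RNA share as a covariate and each library left out.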

Additional observations from a re-analysis of the deposited data

Results flagged for a closer look

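A direct test found 27 genes whose change between 9 h and 12 h differed between WT and KO cells. Besides mt-Atp8 (WT minus KO log2 difference 0.87), Inhba (0.62), Hmox1 (-0.44), Map4k4 (-0.48) and Rps7 (-0.58), the genes named were Ccdc88a (0.44), Olfm1 (0.49), Rps26 (0.49), Selenot (0.42), Acox3 (-0.80), Rpl37 (-0.50) and Rn7sk (-0.68). Of the 12 leave-one-out fits, the call was lost in 11 for Acox3, 10 for Rn7sk, 9 for Olfm1, 7 for Rps26, 6 for Rpl37 and 3 each for Ccdc88a (without KO 12 h replicate 1, KO 9 h replicate 2 or WT 9 h replicate 2) and Selenot (without KO 12 h replicate 3, KO 9 h replicate 3 or WT 12 h replicate 2), with adjusted p up to 0.155. Acox3, Rps26 and Rn7sk also missed the threshold with the replicate block (adjusted p of 0.0698, 0.0657 and 0.0735). Acox3, an oxidase of peroxisomal fatty acid breakdown, had 63.9, 70.9 and 61.8 CPM at 12 h, against 78.1, 84.4 and 88.1 CPM at 9 h in WT cells and 92.8, 86.1 and 99.8 CPM at 12 h, against 65.00, 65.8 and 72.3 CPM at 9 h in KO cells. Ccdc88a, an actin-binding protein of cell migration, had 346, 352 and 356 CPM at 12 h, against 229, 235 and 248 CPM at 9 h in WT cells and 395, 435 and 434 CPM at 12 h, against 379.7, 401 and 377 CPM at 9 h in KO cells, so that the WT 9 h libraries were the low ones. Rn7sk is a small nuclear RNA that restrains transcription elongation and counts towards the small RNA share, with 1096, 1156 and 1182 CPM at 12 h, against 1486, 1855 and 1944 CPM at 9 h in WT cells and 948, 909 and 923 CPM at 12 h, against 851, 803 and 1013 CPM at 9 h in KO cells. Ribosomal protein genes such as Rps26, Rpl37 and Rps7 have near-identical pseudogenes, so their counts are uncertain.

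A direct test of the WT step from 9 h to 12 h against the WT step from 6 h to 9 h found 441 genes, and both steps use the WT 9 h libraries. The largest differences (log2, later minus earlier step) were 5.75 for Mfsd4a, 3.60 for n-R5s2, 3.50 for n-R5s33, 3.25 for Vcam1, 3.15 for n-R5s156 and 2.96 for Rgp1, and -8.26 for Lars2, -2.97 for Susd3, -2.16 for Numbl, -2.05 for Slc40a1, -1.99 for Chpf2 and -1.98 for Acss2. Of the 9 leave-one-out fits, the call was lost in 7 for Lars2, 5 for Vcam1, 4 for Numbl, 3 for Mfsd4a, 2 each for Rgp1 and Susd3 and 1 for n-R5s156 (adjusted p up to 0.992). These were each of the WT 9 h libraries for Mfsd4a, and for Vcam1 those 3, WT 12 h replicate 1 and WT 6 h replicate 3. For Numbl they were WT 12 h replicate 2, WT 9 h replicates 2 and 3 and WT 6 h replicate 3. For Rgp1 they were WT 9 h replicates 1 and 3, for Susd3 WT 9 h replicates 2 and 3, and for n-R5s156 WT 9 h replicate 3. In the fit of the 9 libraries it was lost for Vcam1 (adjusted p 0.0751), Numbl (0.0672) and Lars2 (0.210). The 5S ribosomal RNA gene copy n-R5s2 had 20.5, 25.4 and 27.4 CPM at 12 h, against 12.1, 11.03 and 7.22 CPM at 9 h, after 48.4, 46.8 and 56.6 CPM at 6 h, and its copies may share reads. Lars2, the mitochondrial leucyl-tRNA synthetase gene, had 13.01, 13.00 and 16.8 CPM at 12 h, against 11.1, 682 and 13.8 CPM at 9 h, after 8.49 to 15.6 CPM at 6 h, so its value rests on WT 9 h replicate 2 alone. In KO cells 1 library at 9 h was likewise high, with 37.5, 10.2 and 15.2 CPM at 12 h, against 826, 11.2 and 13.6 CPM at 9 h. Mfsd4a had 14.1, 1.86 and 14.7 CPM at 12 h, against 1.68, 1.62 and 1.80 CPM at 9 h, after 14.4, 13.6 and 20.7 CPM at 6 h, and WT 12 h replicate 2 stood with the 9 h libraries.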

How the results depend on the processing

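The count of genes changed between 9 h and 12 h (1305) stayed within 1.5 times under DESeq2 (1113), DESeq2 size factors (1279), the 15 WT libraries (1317), the 6 libraries alone (1173) and protein-coding genes (1164), and moved to 832 with no filter and to 39 with the small RNA share as a covariate; with 1 library left out it was 865 to 1046. The 27 genes that differed from the KO step became 68 under DESeq2, 6 with no filter, 8 in the 12 libraries, 13 among protein-coding genes and 0 with the covariate (545 at an unadjusted p under 0.05 in edgeR), and 12 to 36 with 1 library left out. The 441 genes that differed from the step before became 69 with the covariate, 303 with no filter (24.4% more positive, against 48.5%) and 212 to 421 with 1 library left out. The KO step (557) gave 285 with no filter and 380 to 511 with 1 library left out, WT 9 h against 6 h (168) gave 106 with no filter, 55 among protein-coding genes and 82 to 158, and WT 6 h against 3 h (234) gave 66 with no filter and 107 to 200. With the covariate the direction turned for Herpud1 (0.026), Itgb2 (0.0087), Kif11 (-0.84), Nop58 (-0.0050), Rn7sk (0.077) and Lars2 (0.40 against the step before), and with 1 library left out the value of Lars2 ran from -9.395 to 0.19, the highest without WT 9 h replicate 2; the cause was not tested. Of the 176 named genes that passed, 6 lost their call under DESeq2, 3 with its size factors, 42 with no filter, 11 in the 15 WT libraries, 15 in the 6 libraries, 4 among protein-coding genes and 153 with the covariate.

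Replicate numbers are shared between groups. Samples of the same number did not deviate together (Pearson correlations of 0.0556, -0.0923 and 0.01 across 4616 genes, which are not independent replicates). The labels do not say whether such samples share an animal, culture or day, and these correlations cannot settle it. With the replicate block 1240 genes changed, 18 differed from the KO step, 416 differed from the step before and 9 of the 176 named genes lost their call. In the KO step 523 genes changed with the block, and not every WT library correlated best with its own number. Libraries of 2447460 to 3509429 counts leave genes of a few CPM at few reads.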
